A study of Mus musculus with 5 samples.

Results

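Macrophages cocultured with WT or Adam17-/- 4T1 cells were compared for the transcripts that each gene used, and 179 genes with a shifted isoform share are described here. The isoform share of a transcript was its expected count divided by the sum over all transcripts of its gene. The genes were selected on these measured values: an autosomal gene with at least 2 transcripts and a gene sum of at least 300 counts in every library was a member when the mean share of a transcript differed by at least 0.15 between the groups and the groups did not overlap. Of 17058 genes listed in at least 1 library, 2251 could be judged by this rule (eligible genes), and 179 of these were members (7.95%). Because the shares chose the members, they are given as a description without a test. A transcript that did not overlap between the groups, whatever the size of its difference, was found in 43.5% of the eligible genes.

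The cells were bone marrow–derived macrophages (BMDMs) of Balb/c mice aged 6 to 12 weeks, differentiated with M-CSF. They were grown for 48 hours across a porous membrane from 4T1 cells, a mouse mammary carcinoma line, so that only soluble factors were exchanged. The 2 WT libraries came from macrophages cocultured with WT 4T1 cells and the 3 Adam17-/- libraries from macrophages cocultured with 4T1 cells lacking Adam17, the protease that releases EGFR ligands from the cell surface. The macrophages themselves carried no deletion. All 3 Adam17-/- libraries bear 1 knock-out designation (2.8), so that the loss of Adam17 and other features of that line cannot be told apart, and the labels do not say whether replicates came from separate mice. Library totals ranged from 14658694 to 20788373 expected counts.

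A gene can give rise to several messenger RNAs through alternative promoters, alternative splicing, and alternative polyadenylation. Isoforms may encode different proteins, or they may encode the same protein and differ in the untranslated regions that govern stability and translation. SR proteins, hnRNPs, and the CLK kinases, which phosphorylate SR proteins, are among the regulators of exon choice. In macrophages, isoforms of the Toll-like receptor adaptor MyD88 and of the MHC class II regulator CIITA are known examples. Short reads rarely span a whole transcript, so an isoform share is an estimate from reads that often fit several transcripts, and between 48.3% and 49.3% of the transcript counts in a library, which are deposited to 2 decimals, had a decimal other than 0.

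For 33 members, GENCODE gave 2 distinct structures that agreed in length with the deposited transcripts. The transcript that gained most share and the transcript that lost most share had first exons that did not overlap in 22 of them. In the other 11, the first and the last exons overlapped and the introns differed. Some of these 11 pairs, such as those of Tirap and Cdk10, differed only by bases of exon 1. Coding segments that told such pairs apart are shown here because reads over them bear directly on the share. Capitals mark a segment found in only 1 of the 2 transcripts, and lower case the 20 coding bases on either side in the spliced transcript (GENCODE M21, GRCm38). The 2 Tars2 exons are neighbors, so the lower case after exon 4 and before exon 5 also belongs to the lost transcript only.
Tars2 exon 4 of 18, lost transcript only, chr3:95751506-95751630, minus strand: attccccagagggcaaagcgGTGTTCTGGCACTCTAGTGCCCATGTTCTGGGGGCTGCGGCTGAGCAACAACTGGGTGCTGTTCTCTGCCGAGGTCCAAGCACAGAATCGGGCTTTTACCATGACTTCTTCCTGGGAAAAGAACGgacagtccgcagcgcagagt
Tars2 exon 5 of 18, lost transcript only, chr3:95750867-95750984, minus strand: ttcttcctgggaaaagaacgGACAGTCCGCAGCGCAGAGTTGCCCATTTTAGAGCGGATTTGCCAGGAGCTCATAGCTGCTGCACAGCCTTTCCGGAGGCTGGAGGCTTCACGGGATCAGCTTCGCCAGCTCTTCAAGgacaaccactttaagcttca
Ints10 exon 17 of 18, lost transcript only, chr8:68824190-68824267, plus strand: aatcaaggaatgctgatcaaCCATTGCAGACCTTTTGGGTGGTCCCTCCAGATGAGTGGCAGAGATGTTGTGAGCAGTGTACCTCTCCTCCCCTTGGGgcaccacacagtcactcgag
Ldah exon 6 of 7, gained transcript only, chr12:8275808-8275890, plus strand: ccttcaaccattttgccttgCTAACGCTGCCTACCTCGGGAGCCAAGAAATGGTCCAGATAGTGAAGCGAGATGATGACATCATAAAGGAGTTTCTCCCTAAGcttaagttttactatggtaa
Cdk10 part of exon 1, gained transcript only, chr8:123224931-123224968, plus strand: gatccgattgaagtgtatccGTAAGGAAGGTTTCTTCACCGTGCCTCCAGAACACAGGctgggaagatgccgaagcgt
Tars2, the mitochondrial threonyl-tRNA synthetase, thus shifted toward a transcript without 125 and 118 bases of neighbouring exons, and the encoded proteins had 642 and 723 residues. Ints10, a subunit of the Integrator complex, shifted away from a transcript with a 78-base exon, which holds a whole number of codons, and the gained and lost proteins had 710 and 736 residues. Ldah, a lipid droplet hydrolase, and Cdk10, a cyclin-dependent kinase, shifted the other way, toward the transcript that held the segment. Ints10, Ldah, and Cdk10 were chosen for display after their values were seen.

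The share of the Tars2 transcript with both exons was 0.593 and 0.849 in the WT libraries against 0.349, 0.415, and 0.379 in the Adam17-/- libraries. All 3 Adam17-/- libraries lay below both WT libraries, which themselves differed by more than the Adam17-/- libraries did. The transcript without the exons had shares of 0.342 and 0.0159 against 0.529, 0.461, and 0.486. The Ints10 transcript with the exon went from 0.335 and 0.174 to 0.0459, 0.113, and 0.0836. For Ldah, the transcript with the exon had shares of 0.510 and 0.592 in the WT and 0.832, 0.691, and 0.656 in the Adam17-/- libraries.

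First exons that did not overlap were the other kind of difference that could be located. Of the 22 members with another first exon, the gained transcript started downstream of the lost one in 14 (63.6%, against 58.3% of 156 other eligible genes) and was the shorter in 20 (90.9%, against 67.3%). RefSeq promoter windows (GRCm38.p6) within 100 bases of both starts were at hand for 12 of them. The 250 bases before each start are printed for the 2 of these members with the highest minimum gene sum, Ctdsp2, a small phosphatase of the RNA polymerase II C-terminal domain, and Mapk14, the p38α MAP kinase of stress and cytokine signaling. Both were chosen for display after their values were seen. Capitals mark matches on either strand to the GC box GGGCGG, the CCAAT box CCAAT, the TATA box TATAAA, or the AP-1 motif TGANTCA.
Mapk14 start of the gained transcript, chr17:28692318-28692567, plus strand: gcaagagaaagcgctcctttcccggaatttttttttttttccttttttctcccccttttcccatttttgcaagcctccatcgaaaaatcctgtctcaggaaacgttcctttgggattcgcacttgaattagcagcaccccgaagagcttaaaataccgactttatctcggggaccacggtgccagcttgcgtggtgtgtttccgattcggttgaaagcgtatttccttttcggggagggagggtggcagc
Mapk14 start of the lost transcript, chr17:28691092-28691341, plus strand: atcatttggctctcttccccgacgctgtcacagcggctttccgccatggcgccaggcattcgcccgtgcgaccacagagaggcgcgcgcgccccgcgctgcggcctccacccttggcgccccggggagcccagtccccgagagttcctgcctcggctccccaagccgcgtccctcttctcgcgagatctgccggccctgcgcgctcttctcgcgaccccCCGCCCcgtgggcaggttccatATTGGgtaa
Ctdsp2 start of the gained transcript, chr10:126995363-126995612, plus strand: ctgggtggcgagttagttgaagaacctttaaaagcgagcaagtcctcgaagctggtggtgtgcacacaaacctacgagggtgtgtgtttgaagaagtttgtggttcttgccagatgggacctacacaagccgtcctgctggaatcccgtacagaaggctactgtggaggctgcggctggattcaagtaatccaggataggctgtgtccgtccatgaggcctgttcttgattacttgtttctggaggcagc
Ctdsp2 start of the lost transcript, chr10:126978467-126978716, plus strand: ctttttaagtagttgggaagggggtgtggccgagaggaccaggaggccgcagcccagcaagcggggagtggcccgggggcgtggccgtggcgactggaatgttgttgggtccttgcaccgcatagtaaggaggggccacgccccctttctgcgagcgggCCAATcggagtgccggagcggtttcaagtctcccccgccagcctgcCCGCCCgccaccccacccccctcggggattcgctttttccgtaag
The 2 starts lay 1226 bases apart in Mapk14 and 16896 bases apart in Ctdsp2. In both genes, the window of the lost transcript held 1 GC box and 1 CCAAT box, and the window of the gained transcript held neither. Over the 12 members, a GC box was in 4 gained and 8 lost windows and a CCAAT box in 2 gained and 5 lost windows, and in Zmym5, named after its values were seen, both were in the gained window only. These letters were found in 32.7% (GC box) and 33.8% (CCAAT box) of 32817 promoter windows, TATAAA in 12.4%, and TGANTCA in 6.75%. The CG dinucleotide occurred 14 times before the gained and 30 times before the lost start of Mapk14, and 8 and 20 times in Ctdsp2. Over the 12 members, the gained start had the fewer CG dinucleotides in 9 (75%), with medians of 6.5 and 20.5, while this held for 57.3% of 117 other eligible genes with both windows. A match is a description of the letters and not evidence of binding.

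Mapk14 is one of the more deeply counted members, with at least 2499 counts in each library. Its lost transcript had shares of 0.422 and 0.276 in the WT libraries against 0.118, 0.0834, and 0.245 in the Adam17-/- libraries, so the groups were separated by a small gap. The gained transcript had 0.473 and 0.609 against 0.753, 0.771, and 0.666. The encoded proteins had 283 residues (gained) and 360 residues (lost). The gene sum had a log2 fold change of 0.06 (SE 0.08). In Ctdsp2, the gained transcript had shares of 0.25 and 0.227 in the WT and 0.434, 0.427, and 0.400 in the Adam17-/- libraries, with a gap between the groups far wider than the spread within either.

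Ciita, the master regulator of MHC class II transcription, gained a transcript of 5438 bases with another first exon, which encoded 1155 residues against 1075 in the lost transcript of 5167 bases. Its share was 0.266 and 0.393 in the WT libraries against 0.718, 0.561, and 0.687 in the Adam17-/- libraries. The lost transcript went from 0.316 and 0.288 to 0.0202, 0, and 0.0336. In CPM (counts relative to library size, corrected with TMM factors), the gained transcript went from 7.01 and 8.86 to 28.9, 21.2, and 27.0 while the lost one went from 8.32 and 6.51 to at most 1.32. The promoters of Ciita are known to be used by different cell types. The summed level of 3 dendritic cell markers, in CPM scaled to library size only, was 3.07 to 5.05 in the WT and 8.66 to 12.7 in the Adam17-/- libraries. Most of it was Ccr7, at 3.99 and 1.98 against 9.76, 7.23, and 8.02 CPM. Flt3 was at 1.06 and 0.885 against 2.30, 1.36, and 1.92 CPM, and Zbtb46, at 0 and 0.208 against 0.631, 0.0682, and 0.110 CPM, did not separate the groups. Their part in the shift of Ciita was not tested. The other first-exon members with the largest differences were Ifi47, an interferon-inducible GTPase, and Slc2a9, a urate transporter, whose gained transcripts had shares of 0.267 and 0.380 against 0.927, 0.500, and 0.517, and of 0.0362 and 0.297 against 0.583, 0.327, and 0.497.

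**Figure D1:**
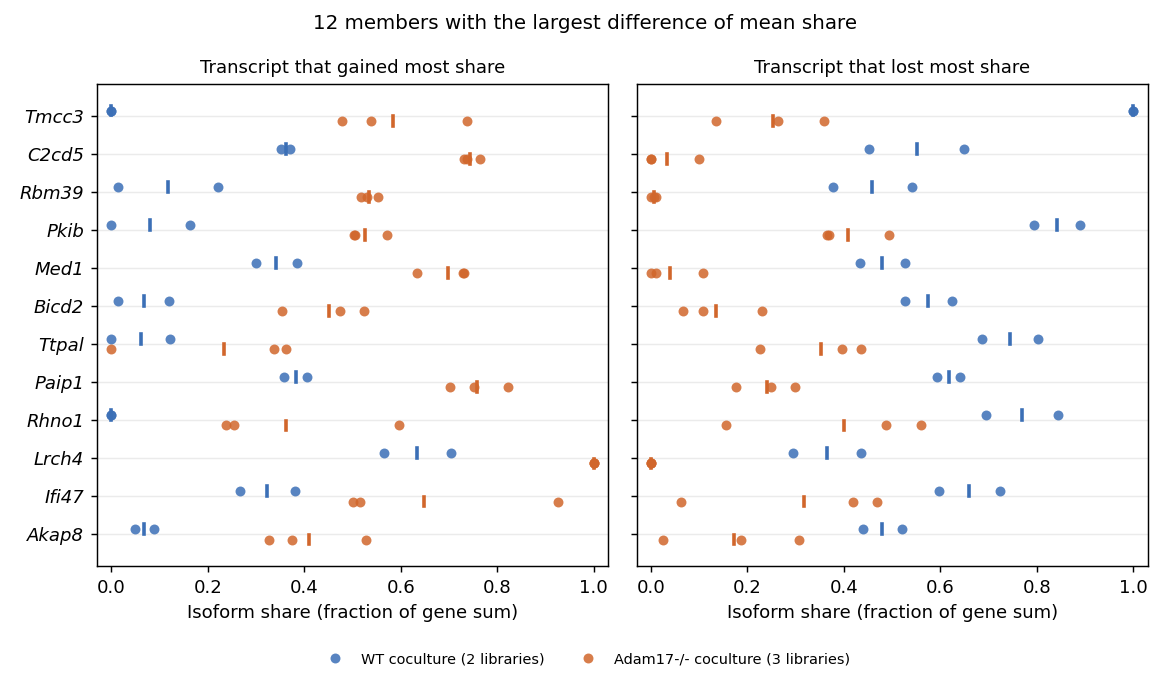
Isoform share (fraction of the gene sum) in each library for the 12 members with the largest difference of mean share, with the transcript that gained most at left and the transcript that lost most at right. Points are libraries and short bars group means (2 WT, 3 Adam17-/-). In Tmcc3 the gained transcript sat at 0 in both WT libraries and between 0.479 and 0.737 in the Adam17-/- libraries, and in Ttpal the groups overlapped for the gained but not for the lost transcript.

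The largest difference of mean share was 0.748, in Tmcc3, which encodes a transmembrane protein of the endoplasmic reticulum. In the WT libraries, all counts of Tmcc3 were assigned to 1 transcript (a share of 1 in both). In the Adam17-/- libraries, that transcript held 0.134, 0.263, and 0.360, and the gained transcript, at 0 in both WT libraries, held 0.539, 0.737, and 0.479. The gained and lost transcripts were 5470 and 5528 bases long. C2cd5, involved in insulin-stimulated trafficking of the glucose transporter GLUT4, followed with a transcript that went from 0.649 and 0.453 to 0, 0, and 0.10. Lrch4, a leucine-rich repeat protein, was the clearest loss of a whole form: the lost transcript of 3081 bases had 0.435 and 0.295 in the WT libraries against 0 in all 3 Adam17-/- libraries, while the gained transcript of 2264 bases stayed between 100 and 118 CPM in all 5 libraries.

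Med1, a subunit of the Mediator complex, shifted away from a transcript with shares of 0.526 and 0.434 in the WT and 0.107, 0, and 0.0112 in the Adam17-/- libraries. Bicd2, an adaptor of the dynein motor, shifted away from one with 0.526 and 0.624 against 0.230, 0.107, and 0.0667. Paip1, which binds poly(A)-binding protein and acts in translation, had 2 transcripts, and the shorter went from 0.406 and 0.359 to 0.701, 0.823, and 0.752. The more abundant form of Paip1 was thus the longer in both WT libraries and the shorter in all 3 Adam17-/- libraries, and in CPM the gained transcript went from 17.6 and 19.9 to between 43.6 and 45.5. Pkib, an inhibitor of protein kinase A, gained a transcript with 0 and 0.163 in the WT and 0.571, 0.506, and 0.504 in the Adam17-/- libraries. The gene sum of Pkib had a log2 fold change of 0.91 (SE 0.12), near the upper end of the members.

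Less even were Ttpal (an α-tocopherol transfer protein-like gene), Rhno1, which takes part in the DNA damage response, and Ifi47. The gained transcript of Ttpal was at 0.122 and 0 in the WT and at 0, 0.337, and 0.363 in the Adam17-/- libraries, and these overlap. It was the lost transcript that met the rule, with 0.686 and 0.801 against 0.395, 0.226, and 0.435. The lost transcript of Rhno1, a noncoding one, ranged from 0.155 to 0.559 among the Adam17-/- libraries against 0.695 and 0.843 in the WT libraries. In Ifi47, Adam17-/- replicate 1 stood apart with a share of 0.0613 for the lost transcript, where the other two were at 0.470 and 0.419.

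Of 39 eligible splicing regulators, 2 were members (Rbm39 and Srsf1), where 7.95% of all eligible genes were. Rbm39, an SR-related splicing factor, had 3 transcripts, and the form of 2803 bases lost and the form of 2598 bases gained most share. The first had shares of 0.541 and 0.376 in the WT and 0, 0.00664, and 0.0104 in the Adam17-/- libraries, and the second 0.0140 and 0.221 against 0.553, 0.517, and 0.531. The WT replicates differed from each other in the gained form (3.92 and 70.1 CPM), yet both lay far below the 255 to 301 CPM of the Adam17-/- libraries. Both matched GENCODE transcripts that encode the same 524 residues, although the matched pair did not agree in length with the deposited transcripts. The gene sum had a log2 fold change of 0.79 (SE 0.09). With at least 5349 counts in every library, Rbm39 was also one of the 8 members with the highest level.

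Srsf1, the founding SR protein, had 2 transcripts, and the one that encodes 201 residues gained share over the one that encodes 248. These residues are those of GENCODE matches that did not agree in length with the deposited transcripts. The gained form had 0.588 and 0.620 in the WT and 0.771, 0.733, and 0.802 in the Adam17-/- libraries. In CPM it went from 61.3 and 78.0 to 134, 127, and 126, while the lost form went from 43.0 and 47.7 to 39.8, 46.1, and 31.3, with overlapping groups. Akap8, a nuclear anchor of protein kinase A, shifted between 2 noncoding transcripts, with the gained one at 0.0493 and 0.0882 in the WT and 0.528, 0.374, and 0.328 in the Adam17-/- libraries. Atf4, the transcription factor of the integrated stress response and a target of nonsense-mediated decay, gained a transcript with 0.0302 and 0.331 in the WT libraries against 0.408, 0.435, and 0.344 in the Adam17-/- libraries, where WT replicate 2 lay just below the lowest Adam17-/- library.

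A further 5 members with roles in RNA processing and translation were picked after their values were seen. Cnot7, a deadenylase of the CCR4-NOT complex, gained a form that was at 0.0177 and 0 in the WT and at 0.297, 0.189, and 0.206 in the Adam17-/- libraries. In Rnpc3, a protein of the minor spliceosome, the lost form went from 0.681 and 0.370 to 0.130, 0.258, and 0.256. The largest transcript differences of Ddx39b (an RNA helicase of splicing and mRNA export), Eif4enif1 (a binding partner of eIF4E), and Clasrp (an SR-like protein) were 0.164, 0.168, and 0.160. Rnpc3 was an exception to the pattern of length described next, because its gained transcript was the longer, at 3888 against 2236 bases.

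**Figure D2:**
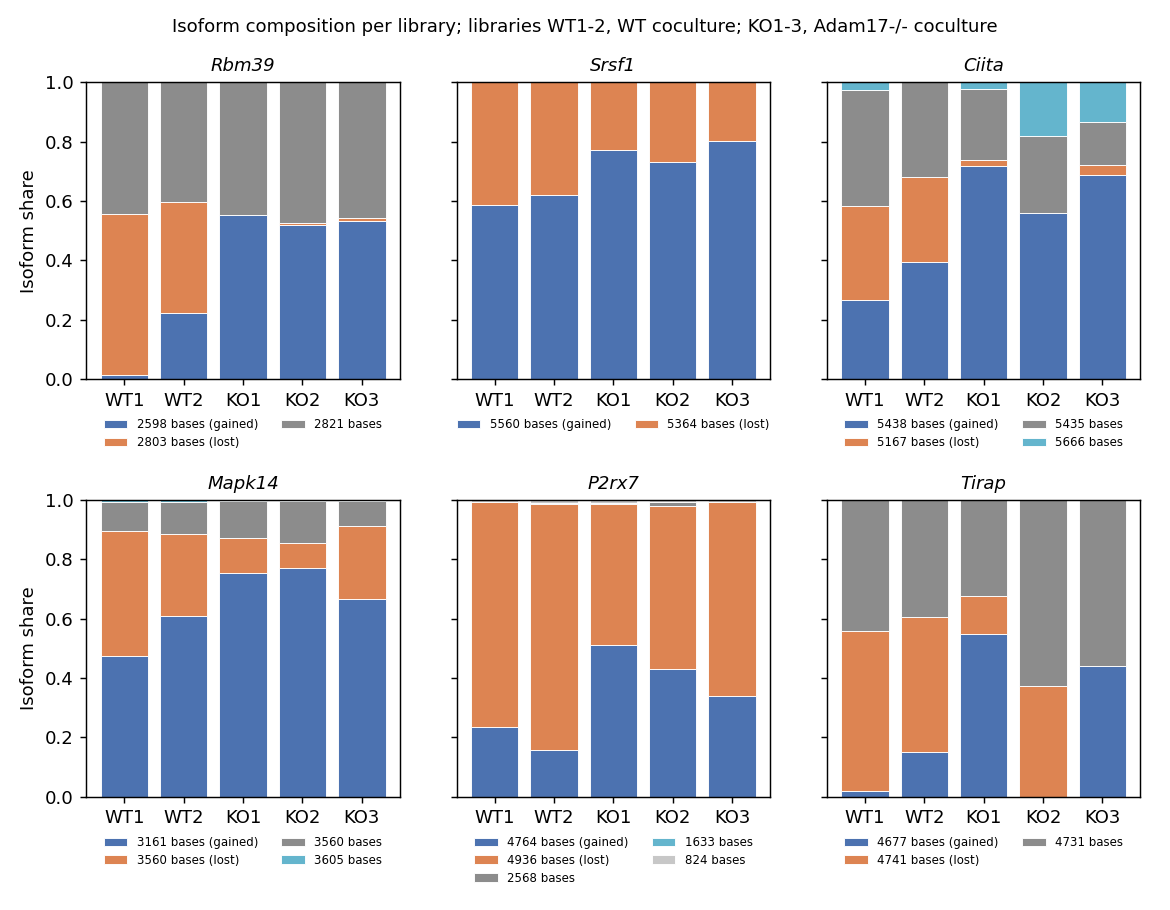
Isoform share of every listed transcript in each library for 6 members (Rbm39, Srsf1, Ciita, Mapk14, P2rx7, and Tirap), stacked to a total of 1, with transcript lengths in the keys. The transcript marked as lost takes a smaller part of the bar in the Adam17-/- libraries (KO1 to KO3) than in the WT libraries (WT1 and WT2) in all 6, while in Tirap the gained transcript is at 0 in KO2.

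Members also included genes of innate sensing and cytokine signaling. Tirap, the adaptor that links TLR2 and TLR4 to MyD88, lost a form with 0.541 and 0.455 in the WT and 0.129, 0.373, and 0 in the Adam17-/- libraries. Its gained form did not separate the groups, since it was at 0.547 and 0.439 in 2 Adam17-/- libraries and at 0 in replicate 2. The 2 forms are 4677 and 4741 bases long and encode the same 249 residues. Ifitm1, an interferon-induced restriction factor, had at least 6085 counts in every library, and its gained form had 0.147 and 0.149 in the WT and 0.360, 0.344, and 0.315 in the Adam17-/- libraries, with little spread in either group. The lost form of Ifitm1 was the one whose level moved most, from 772 and 731 CPM to 306, 263, and 369 CPM.

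Mavs, Traf2, Cyld, P2rx7, and Socs2 were added to this group after their values were seen. P2rx7, the ATP-gated channel upstream of the inflammasome, moved from 0.758 and 0.832 to 0.475, 0.549, and 0.655 for its main form. Mavs, the mitochondrial adaptor of RIG-I-like receptors, moved from 0.337 and 0.343 to 0.636, 0.603, and 0.562 for its gained form, with a gap between the groups wider than the spread within either. Socs2, a suppressor of cytokine signaling, had the highest gene-level fold change of any member, 0.92 on the log2 scale (SE 0.10), with its gained form going from 7.49 and 12.8 to between 32.8 and 36.4 CPM and the lost form, at 27.7 and 25.9 against 29.5 to 35.7 CPM, also higher in every Adam17-/- library. The differences of Traf2 and Cyld, which regulate NF-κB signaling through ubiquitin, were 0.166 and 0.176. Of the 6 genes of the EGFR and MAPK list that were eligible, 0 were members, a number too small to set against the 7.95% of all eligible genes. Shoc2, a scaffold of RAS-ERK signaling that is not on that list and was picked after its values were seen, was a member, and its gained form went from 0.120 and 0.177 to 0.373, 0.564, and 0.525.

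Gcnt1, Abr, Gas7, Arap1, Wsb1, and Rhoa were, with Rbm39 and Ifitm1, the members with the highest levels. Gcnt1, which builds core 2 O-glycans, had at least 10665 counts per library, and its gained form had 0.611 and 0.578 in the WT and 0.775, 0.743, and 0.743 in the Adam17-/- libraries. Abr, Arap1, a regulator of Arf GTPases, and Gas7, an actin-binding F-BAR protein, kept the same main form in both groups at a lower share in the Adam17-/- libraries. The main form of Arap1, of 5837 bases, had 0.846 and 0.741 against 0.611, 0.621, and 0.632. The main form of Gas7 had 0.975 and 0.835 against 0.772, 0.741, and 0.695. Its difference of mean share, -0.169, was -0.0287 when only transcripts listed in all 5 files were counted and -0.0992 without WT replicate 1. The gained forms of Rhoa, a GTPase of the actin cytoskeleton, and Wsb1, a SOCS box protein, had 0.259 and 0.406 against 0.514, 0.509, and 0.531, and 0.0860 and 0.186 against 0.329, 0.298, and 0.280. In Arap1, Rhoa, and Wsb1, the 3 Adam17-/- libraries lay closer together than the 2 WT libraries.

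A change between a coding and a noncoding transcript was uncommon. By accession type, both transcripts were coding in 167 of the 179 members, 7 gained a noncoding and 3 lost a noncoding transcript, and both were noncoding in 2. The share of members that gained a noncoding form (3.91%) was near that of the eligible genes (4.89%). Tctn1, of the ciliary transition zone, had a noncoding form at 0.285 and 0.175 in the WT and 0.416, 0.531, and 0.513 in the Adam17-/- libraries. Tti2, which stabilizes PI3K-related kinases, had one at 0.584 and 0.694 against 0.831, 0.864, and 0.789, and in Patz1, a zinc finger transcription factor, the coding form that lost share went from 0.721 and 0.691 to 0.541, 0.592, and 0.227. Among 141 members for which both transcripts matched different GENCODE transcripts, 84 encoded different proteins, 49 encoded the same one, 6 were coding against noncoding, and 2 were both noncoding. These classes rest on the matches alone. Agreement in length with the deposited transcripts was not required for them, and it held for 33 of the members. Different proteins were thus found in 46.9% of all 179 members and 60.1% of the eligible genes, and the same protein in 27.4% of the members and in 406 of the 2251 eligible genes. In the 84, the median difference between the gained and the lost protein was -30 residues.

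Beyond the rule, most members were alike in gaining a shorter transcript, a lean that the eligible genes also had to a lesser degree. In 139 of 179 members (77.7%) the gained transcript was shorter than the lost one, and in 40 it was longer. Over all 2251 eligible genes the shorter gained in 1305 (58.0%) and the longer in 924, with equal lengths in 22. The median difference in length was -104 bases in the members and -24 bases in the eligible genes. With genes of equal lengths left out, the shorter form gained in 54.9% of the genes where the largest difference of mean share was under 0.02 and 51.3% between 0.02 and 0.05, then in 60.5%, 67.5%, and 75.5% in the bins from 0.05, from 0.1, and from 0.15. Transcript length did not enter the rule. The study accepted RNA above a set integrity number, and no value per library was used here. The part of RNA integrity in this lean was not tested.

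The mean share of the longest transcript of each member was 0.440 and 0.427 in the WT libraries against 0.349, 0.350, and 0.352 in the Adam17-/- libraries. The mean share of the shortest was 0.246 and 0.260 against 0.359, 0.340, and 0.347. Over the eligible genes, the same means differed much less, with 0.425 and 0.423 against 0.408, 0.415, and 0.411 for the longest transcript. Genes with a single transcript were compared by length at the level of the gene sum. Their median log2 fold change was -0.03 in the quartile with the shortest transcripts (median 1194 bases) and 0.05 in the quartile with the longest (median 5427 bases).

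Single libraries of a group also differed from each other in isoform share, which gives a measure of the error. Between the 2 WT libraries, 270 eligible genes had a transcript that differed by at least 0.15, and between 2 Adam17-/- libraries 290 to 313 did. Between a WT and an Adam17-/- library there were 311 to 430 such genes. The direction of length was compared in the same pairs, again without genes of equal lengths. The shorter transcript was the higher in the second library in 43.9% to 56.0% of the genes in pairs within a group, and in the Adam17-/- library in 65.1% to 71.6% in all 6 pairs between the groups. These pairs share libraries and are not independent of each other.

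**Figure D3:**
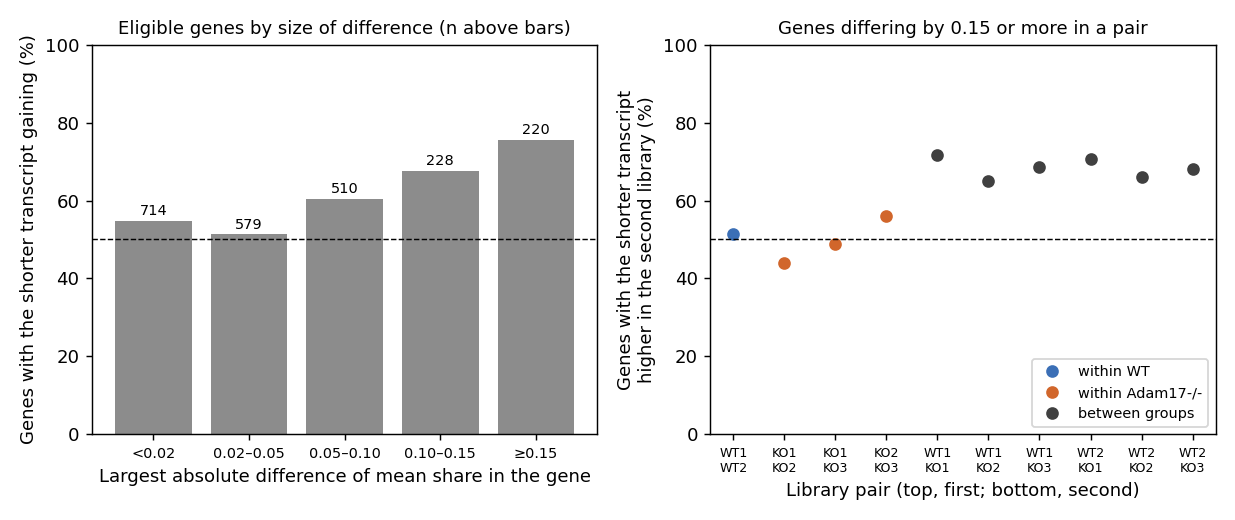
Left, percentage of eligible genes in which the transcript that gained was shorter than the one that lost, by the largest difference of mean share in the gene, with the number of genes, including those of equal lengths, above each bar. Genes of equal lengths are left out of the percentages on both sides. Right, percentage of genes with the shorter transcript higher in the second of 2 libraries, among genes that differed by at least 0.15 between them. The 6 pairs between groups lie from 65.1% to 71.6%, and the 4 pairs within a group from 43.9% to 56.0%.

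In terms of level, the gained transcript had the higher CPM in every Adam17-/- library in 134 members and the lost transcript the lower CPM in every Adam17-/- library in 123, and both held in 85. These were 74.9%, 68.7%, and 47.5% of the members, and 31.8%, 41.8%, and 10.1% of the eligible genes. The order of the 2 transcripts by group mean changed in 63 members (35.2%, against 8.62% of the eligible genes). The rule used the same contrast, so nothing is read from these shares of genes. Members had more transcripts than eligible genes (median 3 and 2, with exactly 2 in 57 of 179 members and 1209 of 2251 eligible genes) and lower gene sums (median of the lowest library 854 and 1080 counts). Just inside the rule lay Itga9, an integrin subunit, Sec23b, a COPII coat protein, and Stat5b, a transcription factor of cytokine signaling, with differences of mean share of -0.15, -0.151, and -0.151 for the lost form. That form had 0.587 and 0.738 against 0.545, 0.494, and 0.498 in Itga9, where the difference was -0.0747 without WT replicate 2 and -0.226 without WT replicate 1. In Sec23b it had 0.581 and 0.719 against 0.453, 0.555, and 0.488, with a difference of -0.0819 without WT replicate 2. The shares of Stat5b were 0.810 and 0.790 against 0.696, 0.574, and 0.677, a wider gap than in the other two. Just outside lay Hadhb, a mitochondrial β-oxidation enzyme, with shares of 0.678 and 0.688 against 0.786, 0.833, and 0.879, Ncoa4, the ferritinophagy receptor, and Septin8, a cytoskeletal GTPase (differences under 0.15, of which the smallest was 0.149).

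The sums per gene were tested over all 12576 genes that passed the filter on low counts. With edgeR's quasi-likelihood test and an adjusted p of 0.05 or less, 31.7% of these genes were called. The calls were higher in the Adam17-/- libraries for 14.9% and lower for 16.8% of them. All 179 members passed the filter, and 69 of them were called, 37 higher and 32 lower. With library size as the only scaling, 59 members were called higher and 21 lower, where 32.6% of all genes tested were called. Without Adam17-/- replicate 1, 42 members were called, where 16.15% of all genes tested were. The same contrast chose the members, so nothing is read from these counts. The log2 fold change of the members ranged from -0.95 to 0.92 with a median of 0.04 (0.01 over all genes tested), and 0 members had a change of 1 or more on the log2 scale, against 14 of the 2251 eligible genes (0.622%). Ifitm1 (-0.90, SE 0.12), Itga9 (-0.93, SE 0.17), and Lrch4 (-0.78, SE 0.14) lay near the lower end.

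**Figure D4:**
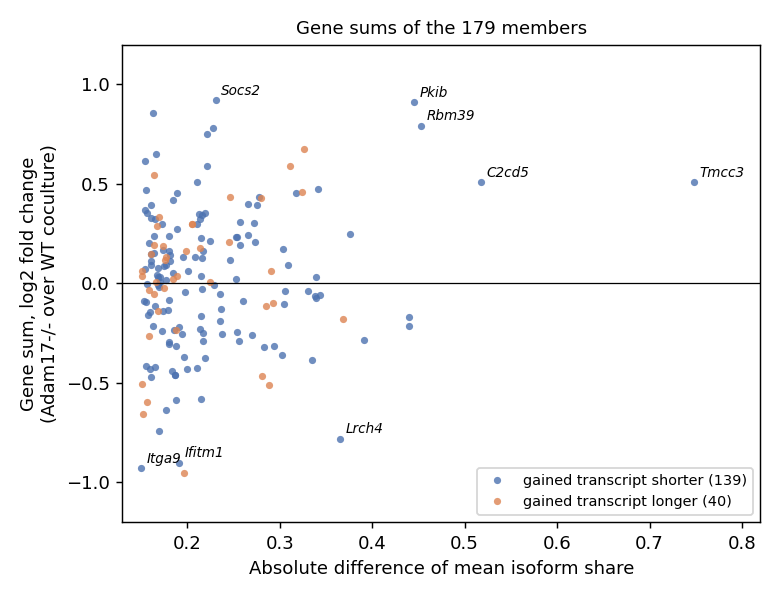
Log2 fold change of the gene sum (Adam17-/- over WT coculture) against the absolute difference of mean isoform share for the 179 members, 1 point per gene. Blue points gained a shorter transcript (139 genes) and orange points a longer one (40 genes), and all points lie between -0.95 and 0.92.

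The list of 66 splicing regulators, which was tested on gene sums and not on shares, is the one that held Rbm39 and Srsf1. Of the 66 genes, 21 rose and 6 fell in macrophages cocultured with Adam17-/- cells (median log2 fold change 0.11, against 0.01 over all genes tested), where 14.9% of all genes tested were called higher and 16.8% lower. The largest increases were those of the kinases Clk1 (log2 fold change 1.06, SE 0.10, adjusted p = 0.000292 by edgeR) and Clk4 (0.96, SE 0.09, adjusted p = 0.000357 by edgeR) and of Mbnl3, a muscleblind family regulator counted at 0.785 to 2.11 CPM (0.95, SE 0.31, adjusted p = 0.0418 by edgeR). Clk1 stood at 258 and 287 CPM in the WT and at 611, 564, and 529 CPM in the Adam17-/- libraries, with no overlap. The largest decreases were those of Ptbp1, a polypyrimidine tract-binding repressor of exons (-0.52, SE 0.15, adjusted p = 0.0299 by edgeR), Hnrnpab (-0.42, SE 0.08, adjusted p = 0.00535 by edgeR), and U2af1, which recognizes the 3′ splice site (-0.39, SE 0.10, adjusted p = 0.0167 by edgeR). Ptbp1 varied widely between the WT replicates (594 and 377 CPM) and stood at 333 to 344 CPM in the Adam17-/- libraries. With library size as the only scaling, 30 of the list were called higher and 1 lower, and the median of all genes shifted to 0.16. Without Adam17-/- replicate 1, 16 were called higher and 1 lower.

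**Figure D5:**
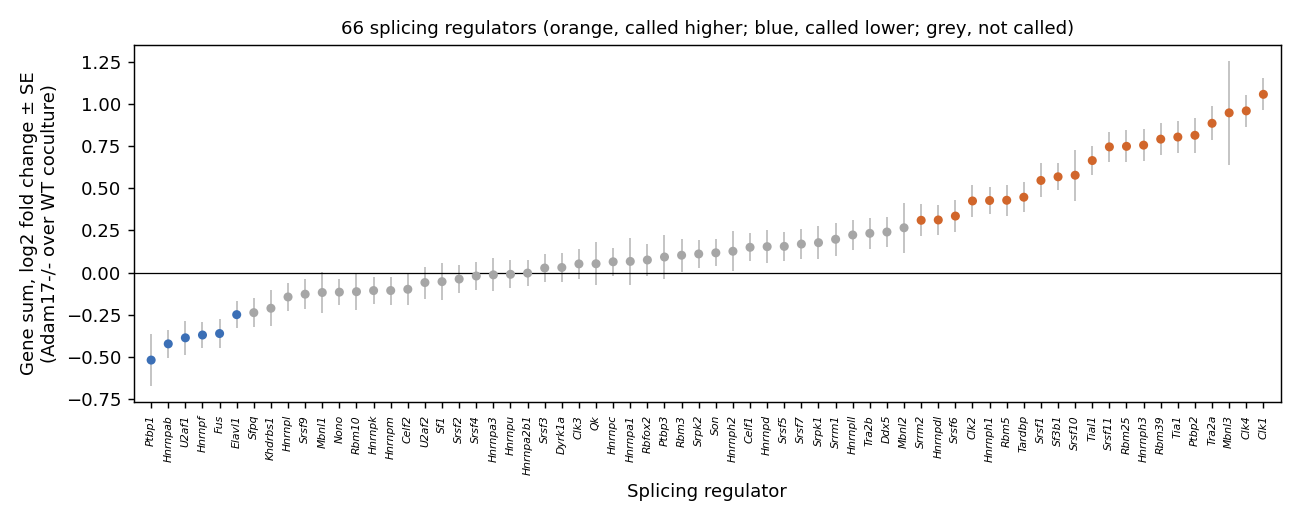
Log2 fold change of the gene sum with its standard error for the 66 splicing regulators, ordered by size (2 WT and 3 Adam17-/- libraries). The 21 called higher are orange, the 6 called lower blue, and the others grey, and Clk1 lies highest at 1.06 and Ptbp1 lowest at -0.52.

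Other lists that bear on isoforms were mixed. Their calls by gene sum are read against the 14.9% called higher and 16.8% called lower of all genes tested. Of 18 genes of nonsense-mediated decay and its targets, 5 rose and 3 fell (median -0.05). Of 20 polyadenylation factors, 4 rose and 4 fell (median 0.00), and nothing is read from lists this small. Of the 4 eligible genes of the first list 1 was a member (Atf4), and of the 8 of the second 0 were, beside the 7.95% of all eligible genes. Of 6 nuclear-retained RNAs tested, 3 rose and 0 fell: Malat1 stood at 1945 and 2508 CPM in the WT and at 5454, 5019, and 4977 CPM in the Adam17-/- libraries, and the other two were Neat1 and Kcnq1ot1. These 3 are named outside the rule, after their values were seen. Their part in the isoform shifts was not tested. Of 31 genes of EGFR and MAPK signaling tested, 3 rose and 12 fell (median -0.17, against 0.01 over all genes tested).

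Markers of cell types also moved with the groups, here in CPM scaled to library size only. The summed level of 7 macrophage markers was 25518 and 26089 CPM in the WT and 18441 to 20186 CPM in the Adam17-/- libraries, and all 7 were counted in every library. Lyz2, Itgam, and Csf1r made up most of this sum, and Mertk was the one marker higher in every Adam17-/- library, at 66.7 and 68.9 against 71.9, 72.4, and 71.2 CPM, a direction that turned with TMM scaling (log2 fold change -0.06, SE 0.08). A longer macrophage list of 30 tested genes, which holds these 7 markers too, had 4 that rose and 17 that fell by gene sum (against 14.9% and 16.8% of all genes tested), and 0 of its 11 eligible genes were members, where 7.95% of all eligible genes were. The summed level of 6 neutrophil markers was 131 to 146 CPM against 490 to 667 CPM, and that of 3 eosinophil markers 4.17 to 5.63 CPM against 13.6 to 18.1 CPM. The eosinophil sum was mostly Siglecf, at 4.23 and 3.02 against 11.8, 12.4, and 13.8 CPM. Prg2 and Epx were also higher in every Adam17-/- library, Epx narrowly, at 0.481 and 0.208 against 0.631, 2.18, and 0.494 CPM. The sum of 4 megakaryocyte and platelet markers, 1867 to 2050 CPM against 1064 to 1177 CPM, was nearly all Pf4, at 1828 and 2014 against 1024, 958, and 1064 CPM. The 3 other markers of that list were higher in every Adam17-/- library, with Itga2b at 33.7 and 31.3 against 57.5, 88.0, and 94.9 CPM, Gp9 at 1.54 and 1.72 against 3.67, 6.55, and 7.08 CPM, and Gp1bb at 3.84 and 3.57 against 7.51, 11.3, and 10.8 CPM. The sum of the epithelial markers of the cancer cells, 10.6 to 11.4 CPM against 12.2 to 14.5 CPM, was nearly all Cdh1, at 10.2 to 10.9 against 11.8 to 13.9 CPM, and with TMM scaling the groups overlapped for Cdh1. Of the other epithelial markers, Krt18 was at most at 0.459 CPM, Krt8 at most at 0.165 CPM, and Krt14 and Epcam were at 0 in 3 and 4 of the 5 libraries. Markers of T and B cells stood at 0.260 to 1.15 CPM against 0.918 to 1.64 CPM. No marker of these lists was at 0 in all libraries. In bulk RNA, a change in the number of cells of a type and a change in RNA per cell cannot be told apart, and the part of these markers in the isoform shifts was not tested.

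The number of members depended on which libraries were compared, and the cause was not tested. Leaving out each library in turn gave 203 to 302 members, the most without WT replicate 2, and 131 to 159 of the 179 stayed members. The shorter transcript gained in 71.6% to 74.7% of the members in these comparisons. With at least 1000 counts in every library, 76 genes were members and the shorter transcript gained in 66 of them (86.8%). Some share differences of named members moved further when a single library was left out. Without WT replicate 1, the difference of mean share was 0.172 in Slc2a9 (0.302 with all libraries), 0.112 in Rhoa (0.186), and 0.0642 in Atf4 (0.215). Without WT replicate 2 it was 0.365 in Atf4 and -0.212 in Tars2 (-0.340). It was -0.216 in Ifi47 (-0.344) without Adam17-/- replicate 1 and -0.140 in Patz1 (-0.253) without Adam17-/- replicate 3.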

How the data were processed

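RNA-Seq libraries of 5 BMDM samples (2 WT coculture, 3 Adam17-/- coculture, grouped by the labels) were analyzed. The authors sequenced poly(A)-selected RNA on a BGISEQ-500 instrument and aligned it to GRCm38, and per the submitters' processing notes transcripts were quantified with Bowtie2 and RSEM (versions not given in the sources used here). The files deposited by the authors hold, per RefSeq transcript and library, an unnormalized expected count. Beside it, the authors deposited FPKM, scaled to the length of the transcript and to library depth. A transcript below an FPKM of 0.01 has no entry and entered the shares as 0. RSEM divides reads among the transcripts they fit, so the shares of transcripts that differ by few bases are the least certain, and no count of reads unique to a transcript was used here. Whether counting used strand is not given in the sources used here, so that reads of overlapping and antisense genes cannot be told apart.

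Expected counts gave the shares. Their gene sums, rounded to whole numbers, entered edgeR's quasi-likelihood test (edgeR 4.0.16, R 4.3.3) after filterByExpr and TMM scaling, with no covariates, and calls were made at a Benjamini-Hochberg adjusted p of 0.05. The study's tool, DESeq2 (1.42.0 here), was an alternative. P-values measure the spread between libraries, which may be technical. With 2 libraries against 3, no exact test of a single share was made. Symbols and chromosomes came from RefSeq, and 43 genes without a chromosome there were left out. Of 599 transcripts of the members, 591 matched a GENCODE M21 transcript (GRCm38). A structure was compared only where the difference in length agreed within 30 bases, and proteins are those of the matched GENCODE transcripts. Genes of chromosome 18 did not enter the comparison of transcript starts and promoter windows. Other tools were Python 3.11.15, pandas 2.3.3, numpy 2.4.6, and matplotlib 3.10.9. The scripts were tested on simulated data. The simulated shares varied between replicates by counting alone, so that test does not measure the error of the rule in these data.

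The members and gene lists were chosen with earlier results of these data known. The genes named are the 12 members with the largest difference, the 8 with the highest level, those on a list, the 3 nearest to the threshold on each side, the 3 largest of each kind of protein or structural change, and the 3 splicing regulators with the largest change in each direction. Those named outside this rule are said to be so.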

Additional observations from a re-analysis of the deposited data

How the results depend on the processing

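The number of members was 334 at a difference of at least 0.1, 87 at 0.2, and 76 with at least 1000 counts, and 302 without WT replicate 2 (leaving out each library, 203 to 302). The count of members that gained a shorter transcript was 241, 71, and 66 at these 3 settings in the same order (leave-one-out 151 to 222), 91 of 109 for pairs that differ by at least 100 bases, and 42 of 57 for genes with 2 listed transcripts. As a share, it was 86.8% with at least 1000 counts. The limits to pairs that differ by 100 bases and to genes with 2 transcripts, and the count of shorter and noncoding forms at 1000 counts, were chosen after seeing the data. The count that gained a noncoding transcript was 18 at 0.1, 2 at 0.2, 0 with at least 1000 counts, and 2 for genes with 2 listed transcripts. Shares of FPKM gave 190 members, of which 171 were among the 179, transcripts listed in all 5 files gave 127, and no condition on overlap 220. With only transcripts listed in all 5 files, 133 of the 179 members had a share difference. Tmcc3, C2cd5, Rbm39, Pkib, Med1, Ttpal, Rhno1, Lrch4, Tirap, and Ciita had none, because the transcript or the gene dropped out. Their shifts could not be judged at this setting. The cause of these changes was not tested.

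By gene sums, library size only called 3019 genes higher and 1077 lower (73.7% higher against 46.9%), and leaving out each library gave 1089 to 2460 higher and 926 to 2940 lower, the fewest without Adam17-/- replicate 1. Replicate numbers are shared by the labels only. With the replicate block, 1216 genes were called higher and 1126 lower, and the deviations of same-numbered libraries correlated at -0.12 and -0.05. The shares have no test, so that no block applies to them. DESeq2 called 1466 higher and 1921 lower. Over the named members and the settings with a value, 181 of the share differences moved by less than the replicate SD and 26 by more. Of the fold changes, 229 moved by less and 19 by more, and no called value changed sign. Most of these settings leave out 1 library, which can move a group mean by only part of that group's own SD. The counts are therefore largely set by the yardstick and do not measure robustness.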

Other observations

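The FPKM values imply the length by which a transcript's effective length falls short of its full length. Over transcripts of 1000 to 1500 bases, the median shortfall was 67.0 and 66.8 bases in the WT libraries and 67.6, 69.7, and 65.7 bases in the Adam17-/- libraries, so that the groups overlapped. If the autosome condition was dropped, 190 genes met the rule.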
